A study of Caenorhabditis elegans with 2 samples.

Results

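The transforming growth factor beta (TGF-beta) genes of Caenorhabditis elegans examined here were 10 named genes of the dauer and Sma/Mab branches, out of 19973 protein-coding genes on the 6 nuclear chromosomes. They were chosen by name: daf-7, daf-1, daf-8, daf-14 and daf-3 of the dauer branch, dbl-1, sma-6, sma-9 and lon-1 of the Sma/Mab branch, and daf-4, which serves both and was counted apart. All 10 were found in the annotation. Binding of the paired box transcription factor PAX-3 was mapped by chromatin immunoprecipitation and sequencing (ChIP-seq) with an antibody against green fluorescent protein (GFP). The single group held 2 biological replicates of whole larvae of mixed sex from strain OP190, genotype unc-119(ed3) III; wgIs190, which expresses PAX-3 with GFP and FLAG at its C-terminus. The larvae were at the first stage (L1), aged 6 h and starved after bleaching. There was no second condition. Chromatin came from whole animals, so strong binding in few cells and weak binding in many cannot be told apart, and the tissue of a site is not known.

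In C. elegans a TGF-beta ligand binds a pair of receptor kinases, of type I and type II, which act on SMAD proteins that enter the nucleus and control genes. The dauer branch, driven by the ligand DAF-7 from sensory neurons, keeps larvae on the path of reproductive growth, and without it they arrest as stress-resistant dauer larvae. The Sma/Mab branch, driven by the ligand DBL-1, sets body size and patterns the male tail. The type II receptor DAF-4 is used by both. Starved L1 larvae have not yet passed the stages at which dauer entry is decided.

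Each gene was scored by peak summits in the deposited lists. The IDR list is the one the authors thresholded by irreproducible discovery rate and held 2139 peaks. The pooled relaxed list and the list of each replicate held 30000 peaks each, which include background by their design. Signal means the authors' own peak value, which ran from 117 to 2034 in the IDR list with a median of 179. It was compared only within a list, and rank 1 is the highest signal. The IDR list equals the 2139 highest peaks of the pooled list, so its peaks need not stand out in each replicate. All positions are in build ce11 and are counted from 1. Sequencing depth is unknown, because the lists hold no read counts.

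None of the 10 TGF-beta genes had an IDR summit in its promoter window, which reached 1000 bp upstream and 200 bp downstream of the annotated start, where 6.99% of all protein-coding genes had one. A count of 0 of 10 allows a share of up to 30% by the limit of 3 counts and up to 30.8% by the exact Clopper-Pearson 95% interval, and both include that background. Inside the gene body 2 of the 10 genes had an IDR summit, daf-14 and sma-9 (20%, exact interval 2.52 to 55.6%), against 2.66% of all genes. When each IDR peak was given to the protein-coding gene with the nearest start, at any distance, 4 of the 10 genes held peaks, namely daf-14, sma-9, daf-4 and sma-6 (40%, exact interval 12.2 to 73.8%), against 8.84% of all genes. These intervals and limits cover counting error only, and no test was made, since the genes are not replicates and were chosen with earlier results known. Each of the listed peaks thus lay in an intron or outside the gene.

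**Figure D1:**
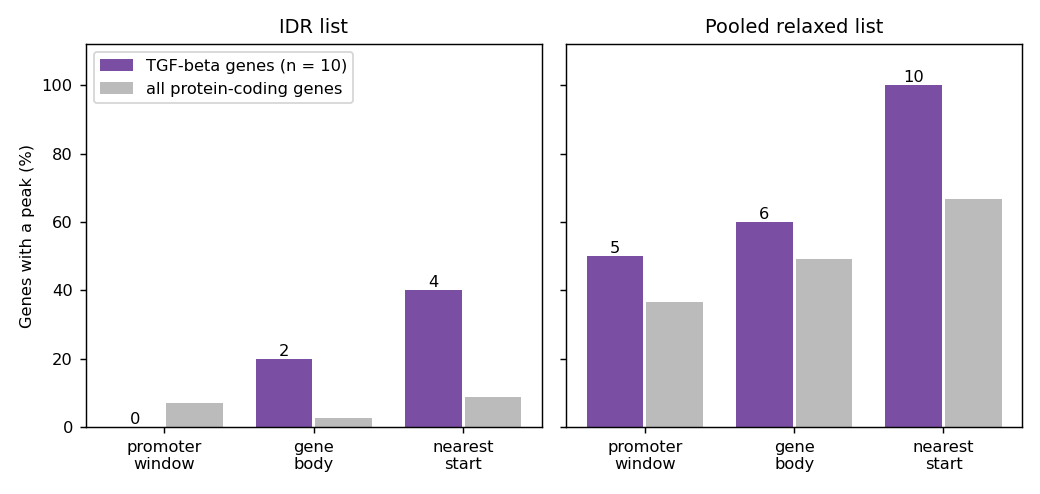
Share of genes with a peak, in percent, for the 10 TGF-beta genes and for all protein-coding genes, in the IDR list and in the pooled relaxed list, by promoter window, gene body and nearest start. Numbers above the bars count TGF-beta genes, which were 0, 2 and 4 in the IDR list and 5, 6 and 10 in the pooled relaxed list.

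In all, 6 IDR peaks were assigned to these genes, 2 at daf-14, 2 at sma-9, 1 at daf-4 and 1 at sma-6. Their summits lay 1873 to 3753 bp from the annotated start of the gene, with a median of 2878.5 bp. Over all 2139 IDR peaks the median distance to the nearest start was 764 bp, and 45.3% lay more than 1000 bp away. The median signal of the 6 peaks was 217, against 179 over the whole list.

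**Figure D2:**
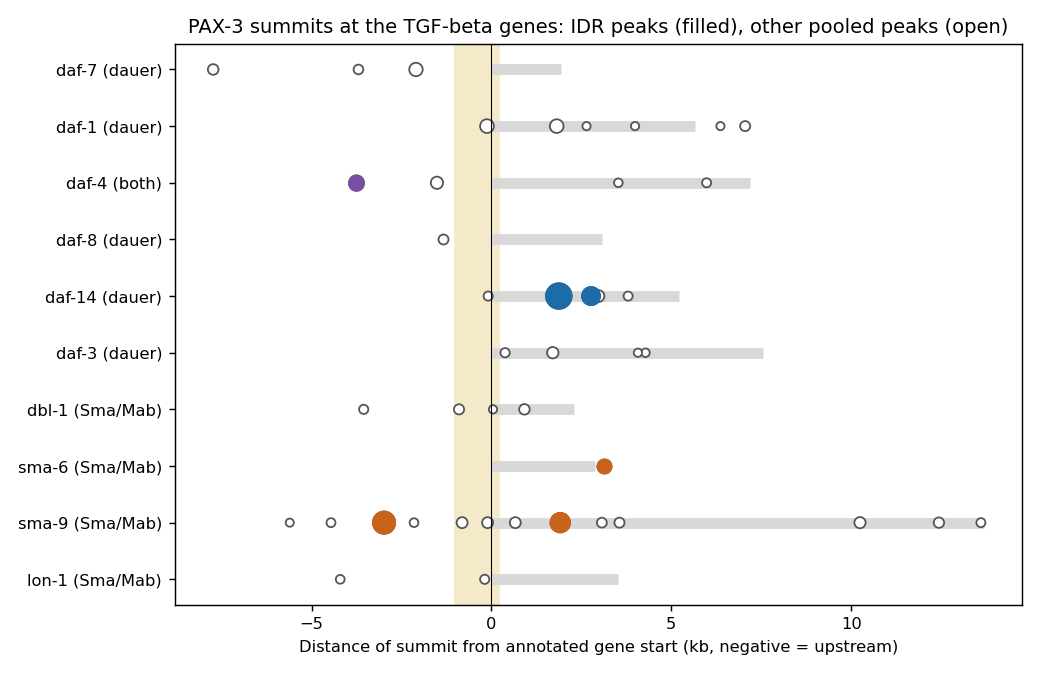
Summits at each TGF-beta gene by distance from its annotated start in kb (negative is upstream), with circle area proportional to signal. Filled circles are IDR peaks, open circles are other pooled relaxed peaks, grey bars are gene bodies and the pale band is the promoter window. The filled circles, at 1873 to 3753 bp from the starts, all lie outside the band.

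daf-14 encodes a receptor-regulated SMAD of the dauer branch and held the strongest peak of the set. The gene (WBGene00000910) spans chromosome IV 10250627 to 10255852 on the plus strand. Its first IDR peak (chromosome IV 10252288 to 10252711, summit 1873 bp downstream of the start) had a signal of 399 and rank 292. In replicate 1 its signal was 233 (rank 227) and in replicate 2 it was 173 (rank 338), with summits 30 bp and 1 bp away. The other peak (chromosome IV 10253186 to 10253609, summit at 2771 bp) had a signal of 201 and rank 881. Its signal was 99.0 in replicate 1 (rank 1015) and 114 in replicate 2 (rank 682), with summits 4 bp and 83 bp away. Both peaks were thus among the 2139 highest of each replicate.

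The annotation gives daf-14 2 transcripts, and both summits lay in an intron of the long one, F01G10.8b.1. The short transcript, F01G10.8a.1, starts at 10253666, which is 3039 bp downstream of the gene start. The summits lay 1166 bp and 268 bp upstream of that internal start. When the start of each annotated transcript was used in place of the gene start, daf-14 gained a promoter peak, which made 1 of 10 genes against 7.57% of all genes. A further summit in the pooled relaxed list, 65 bp upstream of the internal start, had a signal of 87.4 and rank 3825. Its interval overlapped that of the IDR peak at 2771 bp. Replicate 1 had 31.4 there (rank 13697). The nearest summit of replicate 2, 120 bp away, was the one already given for the peak at 2771 bp. At the annotated gene start itself the pooled list held only a summit of signal 51.8 and rank 16418, at −91 bp. The bases around both IDR summits are printed to show the intronic sites themselves, as 151 bases of the plus strand in RefSeq's copy of the assembly (WBcel235, also called ce11), with capitals marking matches to the motifs described further on. The sites are chrIV:10252425-10252575 and chrIV:10253323-10253473.
daf-14 at +1873 bp: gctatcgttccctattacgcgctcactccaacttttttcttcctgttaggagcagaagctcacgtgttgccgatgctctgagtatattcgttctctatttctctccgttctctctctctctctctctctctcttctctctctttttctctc
daf-14 at +2771 bp: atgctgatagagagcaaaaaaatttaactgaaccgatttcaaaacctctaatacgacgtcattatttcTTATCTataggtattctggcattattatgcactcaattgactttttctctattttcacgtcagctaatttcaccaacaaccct

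sma-9 encodes a zinc finger protein of the Schnurri family that acts with the SMADs of the Sma/Mab branch, and it was the other gene with 2 IDR peaks. The gene (WBGene00004862) spans X chromosome 10769282 to 10782973 on the plus strand. The stronger peak lay upstream (X chromosome 10766084 to 10766507, summit at −2986 bp), with a signal of 302 and rank 453. Its signal was 174 in replicate 1 (rank 404, summit 25 bp away) and 149 in replicate 2 (rank 441, summit 119 bp away). The other peak (X chromosome 10770983 to 10771406, summit at 1913 bp) had a signal of 232 and rank 688. In replicate 1 its signal was 143 (rank 546, 96 bp away) and in replicate 2 it was 95.3 (rank 944, at the same base). Both sites ranked higher than 1000 in each replicate list, but the upstream summit missed the 100 bp distance for a match in replicate 2.

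Of the 16 annotated sma-9 transcripts, 3 span the downstream summit, in an intron, and the other 13 start beyond it. The nearest of the internal starts was 1886 bp further on, at 10773081, so no alternative start placed this peak in a promoter window. The upstream peak was in intergenic sequence, 8144 bp from the end of R07A4.3. A noncoding RNA gene, T05A10.8, has its start 2576 bp from that summit, nearer than that of sma-9. At chrX:10766221-10766371 and chrX:10771120-10771270 the plus strand reads as follows, in the same form.
sma-9 at −2986 bp: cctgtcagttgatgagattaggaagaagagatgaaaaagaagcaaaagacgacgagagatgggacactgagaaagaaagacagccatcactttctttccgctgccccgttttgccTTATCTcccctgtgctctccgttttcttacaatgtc
sma-9 at +1913 bp: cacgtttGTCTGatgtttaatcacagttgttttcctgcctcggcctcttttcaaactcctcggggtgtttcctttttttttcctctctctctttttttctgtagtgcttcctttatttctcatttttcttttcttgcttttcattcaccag

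daf-4 encodes the type II receptor of both branches and had 1 weaker IDR peak far upstream. The gene (WBGene00000900) spans chromosome III 5625135 to 5632323 on the plus strand. The peak (chromosome III 5621170 to 5621593, summit at −3753 bp) had a signal of 137 and rank 1663. Its signal was 51.0 in replicate 1 (rank 3451) and 78.5 in replicate 2 (rank 1304), so it was among the 2139 highest in replicate 2 only. The summits of both replicates lay within 22 bp of the pooled one. A noncoding RNA gene, C05D2.13, lay 128 bp from the summit, and the nearest other protein-coding start was that of basl-1, 6434 bp away.

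sma-6 encodes the type I receptor of the Sma/Mab branch, and its peak lay past the end of the gene. The gene (WBGene00004860) spans chromosome II 6324484 to 6327355 on the plus strand. The peak (chromosome II 6327407 to 6327830) had its summit 264 bp downstream of the gene end and 3135 bp from the start, in the interval between sma-6 and set-4, which points the other way. Its signal was 121 and its rank 2015, near the lower end of the IDR list. In replicate 1 the signal was 45.0 (rank 4788, 75 bp away) and in replicate 2 it was 71.5 (rank 1538, 47 bp away), so again only replicate 2 placed it among its 2139 highest. The start of the noncoding RNA gene C32D5.15 was 1090 bp away, and mir-60 lay 1083 bp away. The sequences of the daf-4 and sma-6 sites follow, chrIII:5621307-5621457 and chrII:6327544-6327694 on the plus strand. They are given because the assignment of each peak to a gene is uncertain.
daf-4 at −3753 bp: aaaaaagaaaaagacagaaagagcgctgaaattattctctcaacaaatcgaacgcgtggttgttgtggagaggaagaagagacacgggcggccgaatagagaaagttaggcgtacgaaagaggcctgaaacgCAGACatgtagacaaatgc
sma-6 at +3135 bp: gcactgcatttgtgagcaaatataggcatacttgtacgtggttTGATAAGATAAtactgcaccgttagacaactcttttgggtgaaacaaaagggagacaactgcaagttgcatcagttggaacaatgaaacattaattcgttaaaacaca

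The daf-4 and sma-6 assignments did not hold when noncoding genes could also claim a peak, nor in replicate 1 alone. The upstream sma-9 peak also went to a noncoding gene, T05A10.8, when such genes could claim a peak. By nearest start the 2139 highest peaks of replicate 1 gave 3 of 10 genes, daf-1, daf-14 and sma-9, against 8.68% of all genes, and those of replicate 2 gave the 4 genes of the IDR list, against 8.95%. The 1069 IDR peaks of highest signal gave 2 of 10, daf-14 and sma-9, against 4.83%. With the starts of genes of every biotype, 2 of the 10 genes kept an IDR peak by nearest start, daf-14 and sma-9, against 6.24% of all protein-coding genes. Of its peaks sma-9 kept only the one inside the gene. With only the IDR peaks matched within 100 bp in both replicates' 2139 highest peaks, the count was again 2 of 10, daf-14 and sma-9, against 6.46%. Over all IDR peaks 68.02% were matched in this way, and of the 6 peaks here 3 were, the 2 at daf-14 and the one inside sma-9. In the full replicate lists 5 of the 6 were matched in both, against 94.2% of all IDR peaks, and the upstream sma-9 peak was matched in replicate 1 only.

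**Figure D3:**
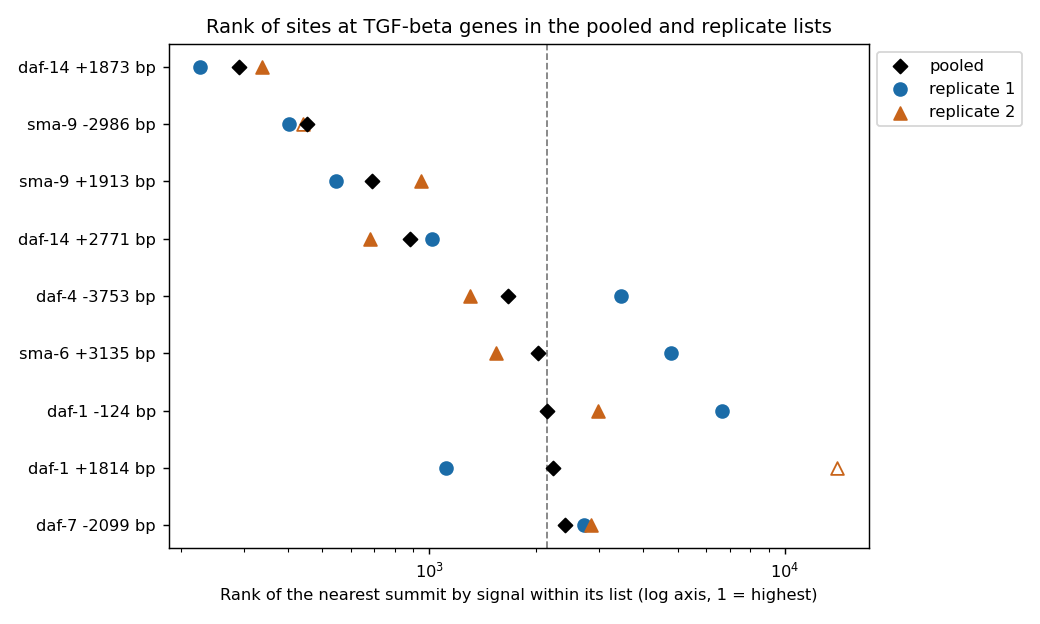
Rank by signal, on a log axis, of the 6 IDR sites and the 3 next pooled sites at TGF-beta genes, in the pooled list (diamonds) and for the nearest summit in replicate 1 (circles) and replicate 2 (triangles); open symbols lie more than 100 bp away. The dashed line is rank 2139. The daf-14 and sma-9 sites lie left of it in all 3 lists, whereas those of daf-4 and sma-6 lie right of it in replicate 1.

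daf-1 encodes the type I receptor of the dauer branch and fell just short of the IDR list at 2 places. The gene (WBGene00000897) spans chromosome IV 132416 to 138081 on the plus strand. A pooled summit in its promoter window, at −124 bp, had a signal of 116.74 and rank 2146, where the lowest IDR peak had 116.89 and rank 2139 was the last. In replicate 2 this site had a signal of 51.8 and rank 2981, with its summit at −117 bp. In replicate 1 the summit within 100 bp of it lay at −72 bp (signal 40.1, rank 6650). Another summit of replicate 1 in the same window, at −271 bp, was stronger (64.9, rank 2063) but too far from the pooled one to count as that site. A pooled summit in an intron, at 1814 bp, had a signal of 114.8 and rank 2227. It was high in replicate 1 (92.7, rank 1111, at 1803 bp), whereas the nearest summit of replicate 2 lay 566 bp away with a signal of 29.9 and rank 14017. The 2139 highest peaks of replicate 1 gave daf-1 a promoter peak, the one at −271 bp, which made 1 of 10 genes against 6.7% of all genes, and those of replicate 2 gave 0 of 10 against 7.1%. The promoter site, chrIV:132217-132367 on the plus strand, is shown as the nearest of these genes to a listed promoter peak.
daf-1 at −124 bp: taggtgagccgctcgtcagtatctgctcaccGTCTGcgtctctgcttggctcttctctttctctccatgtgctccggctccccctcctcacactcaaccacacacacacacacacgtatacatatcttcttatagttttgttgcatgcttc

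daf-7, the ligand gene of the dauer branch (WBGene00000903, chromosome III 811844 to 813773, plus strand), had its highest pooled summit at −2099 bp, with a signal of 111 and rank 2402. Replicate 1 gave 56.6 there (rank 2713) and replicate 2 gave 52.9 (rank 2840), so the site ranked just below the IDR list in both. daf-3, which encodes the co-SMAD that opposes the ligand's effect (WBGene00000899, X chromosome 817922 to 825475, minus strand), had its highest pooled summit at 1705 bp inside coding sequence, at 79.9 and rank 4757. Replicate 1 had 52.9 there (rank 3127), but the nearest summit of replicate 2 lay 1314 bp away. The pooled summit also lay 23 bp downstream of an internal transcript start of daf-3, at 823793. daf-8, the other receptor-regulated SMAD gene (WBGene00000904, chromosome I 8584424 to 8587507, minus strand), had 1 pooled summit, at −1334 bp, of signal 61.3 and rank 10157. Its replicate values were 29.1 (rank 16766) and 24.2 (rank 24323), in the lower part of both lists.

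dbl-1, the ligand gene of the Sma/Mab branch (WBGene00000936, chromosome V 6758135 to 6760418, plus strand), had its highest pooled summit inside coding sequence at 917 bp, with a signal of 68.1 and rank 7377. Replicate 1 gave 30.5 (rank 14821) and replicate 2 gave 31.0 (rank 12621). A summit in its promoter window, at −902 bp, had a pooled signal of 64.0 and rank 8913 and lay 57 bp from the noncoding RNA gene T25F10.9; the replicates gave 23.6 and 37.9 there. lon-1, which encodes a secreted cysteine-rich protein that DBL-1 signalling represses (WBGene00003055, chromosome III 5474476 to 5478005, plus strand), had the lowest pooled signal of the 10 genes, but not the lowest in either replicate. Its highest pooled summit, at −188 bp, had a signal of 52.1 and rank 16190, with 31.6 in replicate 1 (rank 13421), and the nearest summit of replicate 2 lay 1220 bp away.

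The relaxed lists placed a summit nearest to the start of each of the 10 genes, in the pooled data and in both replicates, where 66.6, 66.7 and 67.5% of all genes had one. Promoter windows held a pooled summit in 5 of 10 genes, daf-1, daf-14, dbl-1, sma-9 and lon-1, against 36.7% of all genes. Replicate 1 gave the same 5 genes, against 36.7%, and replicate 2 gave 4 of them, without lon-1, against 37.5%. Gene bodies held a pooled summit in 6 of 10 genes, against 49.3%. Replicate 1 gave 8 of 10 against 49.6%, and replicate 2 gave 7 of 10 against 49.7%. Ordered by the highest pooled signal nearest to each start, the genes ran daf-14, sma-9, daf-4, sma-6, daf-1, daf-7, daf-3, dbl-1, daf-8 and lon-1. The median over the 10 genes was 114, against 60.5 over the 13311 genes with a pooled summit. In replicate 1 these medians were 52.0 and 34.6, and in replicate 2 they were 52.4 and 33.1. sma-6, daf-1 and daf-7 lay close together in the pooled list, at 121, 117 and 111, and their order differed between replicates. Replicate 1 had 92.7 for daf-1, 56.6 for daf-7 and 45.0 for sma-6, whereas replicate 2 had 71.5 for sma-6, 52.9 for daf-7 and 51.8 for daf-1. The daf-1 values are of different sites, the intronic one in replicate 1 and the promoter one in the other lists. Within 100 bp of the pooled promoter summit replicate 1 had 40.1.

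The TGF-beta genes had more sequence around their starts than most genes. The stretch nearer to a gene's start than to any other start measured 7828.5 bp at the median of the 10 genes, against 3858.5 bp over all genes, and gene length was 4378 bp against 2027 bp. Each of the 10 lay above the 50th percentile of this stretch, with sma-6 lowest at 4131 bp and sma-9 highest at 13107 bp. A longer stretch leaves more room for a peak to be given to the gene by nearest start, and its part in these counts was not tested. Per 100 kb of this stretch the 10 genes held 7.23 IDR peaks, 6 in 83.0 kb, against 2.13 over the genome. The same ratio for the pooled relaxed summits was 47.0 against 29.9. Per 100 kb of gene body it was 5.66 IDR peaks, 3 in 53.0 kb, against 1.06. With so few peaks these densities describe the 10 genes and were not tested. daf-1, daf-7 and dbl-1 had among the longest stretches and no IDR peak, whereas sma-9 and daf-4 were also among the longest and held IDR peaks.

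**Figure D4:**
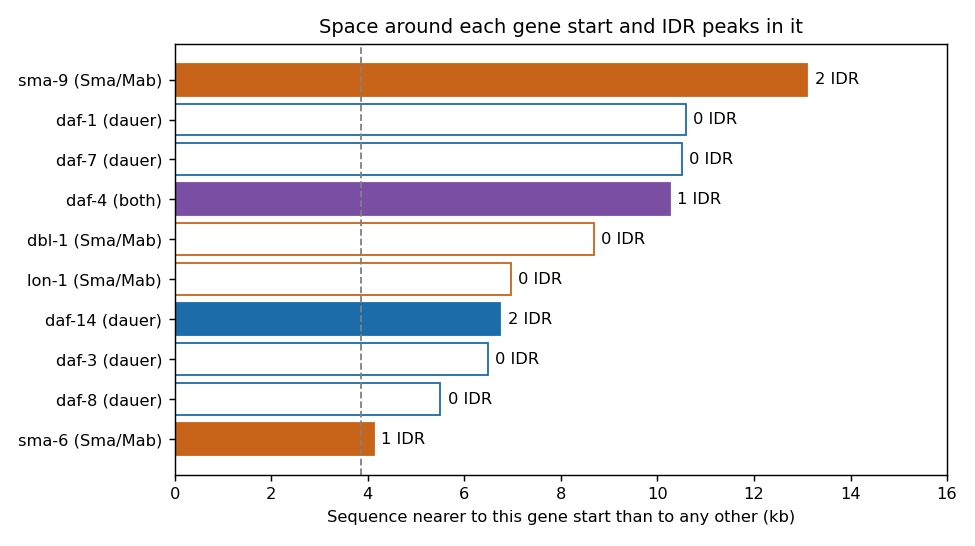
Sequence in kb that lies nearer to the start of each TGF-beta gene than to any other protein-coding start, with filled bars for genes with an IDR peak there, open bars for those without, and the number of IDR peaks at the end. The dashed line is the median of all protein-coding genes, 3858.5 bp, which all 10 genes exceed.

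The branches were compared by the same counts. By nearest start 1 of 5 dauer genes (20%) and 2 of 4 Sma/Mab genes (50%) had an IDR peak, against 8.84% of all genes, with daf-4 as the receptor of both adding 1 more. The order turned round in the 2139 highest peaks of replicate 1, with daf-1 added and sma-6 lost. These gave 2 of 5 dauer genes (40%) and 1 of 4 Sma/Mab genes (25%), against 8.68% of all genes. Replicate 2 gave the same branch shares as the IDR list, against 8.95% of all genes. With starts of every biotype, with the peaks matched in both replicates or with the 1069 of highest signal, the shares were 20 and 25%, or 1 gene in each branch. All genes had 6.24, 6.46 and 4.83% at these settings. With daf-4 counted in the dauer branch the shares were 33.3 and 50%, and with it counted in the Sma/Mab branch they were 20 and 60%. In the gene body each branch had 1 gene, daf-14 and sma-9, against 2.66% of all genes. In promoter windows neither branch had any, against 6.99%. The highest pooled signals ran from 61.3 to 399 in the dauer branch with a median of 111, and from 52.1 to 302 in the Sma/Mab branch with a median of 94.6, so the branches overlapped over most of their range. In replicate 1 the medians were 56.6 for the dauer branch and 38.3 for the Sma/Mab branch, and in replicate 2 they were 51.8 and 54.7, so the order of the branches differed between replicates. Among the 2500 highest pooled peaks, a lower threshold chosen after seeing the data, daf-1 and daf-7 joined by nearest start. The counts were then 3 of 5 dauer genes (60%) and 2 of 4 Sma/Mab genes (50%), again in the opposite order, and 6 of 10 in all against 10.1% of all genes. Each branch had 1 gene with peaks above the median signal of the IDR list, and no test was made on 5 and 4 genes.

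The genes are next given by role. Neither ligand gene, daf-7 or dbl-1, had an IDR peak by any of the 3 counts. Of the receptor genes daf-4 and sma-6 had 1 each and daf-1 none, and the start nearest to both of those peaks was that of a noncoding gene. Of the SMAD genes daf-14 had 2, and daf-8 and daf-3 had none. The cofactor gene sma-9 had 2, and the start nearest to the upstream one was also that of a noncoding gene. The target gene lon-1 had none.

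Another 19 genes of the pathway and its targets were chosen with earlier results known. Of these, 1 had an IDR summit in its promoter window (5.26%, against 6.99% of all genes). In the gene body 2 had one (10.5%, against 2.66%), and by nearest start 3 had a peak (15.8%, against 8.84%). The 2 with body peaks, daf-5 and daf-12, are 19089 and 30968 bp long, against a median of 2027 bp over all genes. Their nearest-start stretches measured 19377.5 and 22746 bp, against 3858.5 bp. The part of these sizes in the counts was not tested. bra-1, which encodes a protein that binds the type I receptor DAF-1, was the one with promoter peaks. They lay at −308 bp (signal 246, rank 623) and −106 bp (signal 126, rank 1915), and only the first was matched in the 2139 highest peaks of both replicates. The intervals of these 2 peaks overlapped, and the nearest replicate 2 summit was the same for both (110, rank 731). They may thus be 1 site. daf-5, which encodes the Sno/Ski partner of DAF-3, had 2 intronic peaks, at 11762 bp (365, rank 336) and 7893 bp (267, rank 545), each matched in both replicates. Both lay upstream of its other annotated transcript start, by 2821 bp and 6690 bp. daf-12, which encodes the nuclear receptor at the end of the dauer pathways, had 2 weaker intronic peaks, at 1793 bp (140, rank 1620) and 14380 bp (119, rank 2062), of which only the first was matched in both replicates' highest 2139. The SMAD genes sma-2, sma-3 and sma-4 of the Sma/Mab branch had no IDR peak by any count. The same held for lon-2 and sma-10, which act on ligand or receptor, for daf-9, which encodes the enzyme for the DAF-12 hormone, and for the remaining 10 genes. These 19 genes held 3.68 IDR peaks per 100 kb of nearest-start stretch, between the 10 genes above and the genome.

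The printed windows were searched on both strands for 7 motifs. GTCACG, a core of paired domain sites, was in none of the 6 IDR windows of the TGF-beta genes, against 7.11% of all 2139 IDR windows of the same length. The homeodomain motif TAATTA was also in none (6.08% of all), nor were the paired homeodomain sites, TAAT followed by its reverse complement after 2 or 3 bases (0.561 and 0.888% of all). GTCTG, which SMADs such as DAF-3 are known to bind, was in 2 windows, at daf-4 on the minus strand and at sma-9 on the plus strand 1913 bp downstream of the start (20.9% of all). Of the motifs bound by GATA factors, AGATAA was in 3 windows, at daf-14 (2771 bp), sma-6 and sma-9 (−2986 bp), against 7.25% of all, and TGATAA was in 1, at sma-6, sharing 1 base with AGATAA there, against 13.6%. The strongest site, in daf-14, held none of the 7. The daf-1 window held GTCTG. In the 300 bases around the gene starts, from 250 bases before to 50 after, GTCACG was in 1 of 10 (lon-1) against 6.29% of all promoters, TAATTA in 2 (daf-4 and dbl-1) against 15.5%, and GTCTG in 2 (daf-1 and sma-9) against 28.5%. AGATAA was in 1 of these 10 promoters (sma-9) against 21.2%, and TGATAA in 2 (daf-8 and lon-1) against 30.2%. The AGATAA share was thus below that of all promoters here and above that of all IDR windows in the peaks. These shares rest on 1 and 3 matches in windows of unlike length, and their difference was not tested. The paired homeodomain sites were in none of the 10 (1.92 and 1.99% of all). A match of this kind describes the letters of the window and is no evidence of contact, and a missing match tells nothing of the factor.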

How the data were processed

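PAX-3 binding was measured by ChIP-seq in 2 replicates of 1 group, so no groups were compared. Peak lists in narrowPeak form were deposited for build ce11, per the notes filed with them. The sources used here give no aligner, caller, control or IDR threshold. Chromatin was sonicated to 200 to 800 bp, per the labels. The authors' deposited signal per peak is on a scale of their own and was ranked within each list. The deposited −log10 of a q-value was read and not used for a result. Gene positions were those of Ensembl release 115 (WBcel235, the same assembly as ce11), and bases from RefSeq's copy. No peak ended beyond a chromosome of that copy.

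Python 3.11.15, pandas 2.3.3, numpy 2.4.6, scipy 1.17.1 and matplotlib 3.10.9 were used. Peaks were placed by their summits. Summits within 100 bp counted as 1 site. Assignment to genes was checked on placed summits. Leaving out a replicate meant using the 2139 highest peaks of the other. The 10 genes and all lists, motifs and alternatives were chosen with earlier results of these data known. All 10 genes are named, with other pathway genes that had an IDR peak and genes that share or lie nearer to a named summit; lon-2, sma-10, daf-9 and the sma-2, sma-3 and sma-4 genes were named without a peak after their counts were seen. Depth is unknown, and 2 replicates allow no test of a single site.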

Additional observations from a re-analysis of the deposited data

How the results depend on the processing

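The count of 0 genes with a promoter peak held with the higher-signal IDR peaks (ranks up to 1069), with those matched in each replicate, with any overlap of the peak and with windows of 500 or 2000 bp upstream. Over all protein-coding genes the shares at these settings, in the same order, were 4.46, 5.5, 7.66, 5.49 and 9.2%. The promoter count was 0 to 1 when either replicate was left out, the 1 being daf-1 without replicate 2. All genes had 7.1% without replicate 1 and 6.7% without replicate 2. The promoter count was 1 with every transcript start (daf-14), 1 among the 2500 highest pooled peaks (daf-1) and 5 in the pooled relaxed list. The shares of all genes there were 7.57, 7.78 and 36.7%. The count of 2 genes with a peak in the body was 2 to 3 when either replicate was left out and 6 in the pooled relaxed list, which holds more peaks by construction. All genes had 2.78% without replicate 1, 2.74% without replicate 2 and 49.3% in the pooled relaxed list. The count of 4 genes by nearest start was 3 to 4 when either replicate was left out, 2 with the higher-signal IDR peaks, 2 with those matched in each replicate, 2 with starts of every biotype and 10 in the pooled relaxed list. All genes had 8.95% without replicate 1 and 8.68% without replicate 2. At the other settings, in the same order, they had 4.83, 6.46, 6.24 and 66.6%. Without replicate 2 the TGF-beta genes with a peak were daf-1, daf-14 and sma-9, so daf-4 and sma-6 rested on replicate 2. Of the 6 IDR peaks, 5 were matched in both full replicate lists within 100 bp, 2 within 50 bp and 6 within 200 bp. The share of dauer genes minus that of Sma/Mab genes by nearest start was −30 points with daf-4 apart, and −16.7 and −40 with it in the dauer or the Sma/Mab branch. It ranged from −30 to 15 when either replicate was left out, the 15 being without replicate 2, and was 10 among the 2500 highest pooled peaks, so the order of the branches is not settled. It was −5 with the higher-signal peaks, −5 with those matched in each replicate, −5 with starts of every biotype and 0 in the pooled relaxed list. The 2500 highest pooled peaks, and the changes of peaks or starts for the branches, were chosen after seeing the data. No paired analysis was possible because there was 1 group.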

Other observations

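The longest unbroken run of pyrimidines or of purines in each printed window was measured after the sequences had been seen. It was 44 bases at the stronger daf-14 site, where 0.421% of all 2139 IDR windows had a run as long. That run reached the edge of the 151-base window, so its full length was not measured. The sma-9 site inside the gene had 33 bases, matched by 1.03% of windows. The median over all IDR windows was 9 bases. The run was 17 bases at the daf-1 promoter site, 16 at daf-4, 12 at the upstream sma-9 site and 10 at both sma-6 and the other daf-14 site. The part of such runs in the signal was not tested.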
